A study of Mus musculus with 18 samples.

Results

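The 3′UTR is the stretch of an mRNA between the stop codon and the poly(A) tail. It holds the binding sites of many microRNAs and RNA-binding proteins that set how long an mRNA lives and how much of it is translated. N6-methyladenosine (m6A) is written on mRNA by the METTL3 and METTL14 methyltransferase complex, mostly within the consensus DRACH, and is commonly found near stop codons and in 3′UTRs, where YTH-domain proteins read it. In the uterus of early pregnancy, the epithelium, the stroma and the leukocytes that enter it all carry such marked transcripts, and their RNA was mixed in the libraries used here.

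The regions described are the differential m6A peaks that the authors' annotation column calls 3′UTR, 8430 of 40929 peaks used in 4 tables. The samples were uteri of wild-type female ICR mice, 8 weeks old, taken on day 5 of pregnancy. Veh mice had vehicle injected daily on days 1 to 4, LPS mice had vehicle daily plus 0.5 mg/kg lipopolysaccharide (LPS, a bacterial cell wall product that activates TLR4) on days 3 and 4, and Mel+LPS mice had 10 mg/kg melatonin daily and the same LPS 30 min later. Melatonin was given in saline with ethanol and LPS in saline, and the make-up of the vehicle alone is not spelled out in the sources used here. Each treatment gave 3 input and 3 m6A-immunoprecipitated libraries, 18 in all, and whole uterus was used, so cell types were not separated. The LPS model is a systemic challenge by intraperitoneal injection, and melatonin alone and Mel+LPS against Veh were not analysed here.

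In LPS vs Veh the peaks are listed as up or down (LPS-up, LPS-down), and likewise in Mel+LPS vs LPS (Mel-up, Mel-down). Each peak has 1 value per comparison, the authors' log10 likelihood ratio, which grows as the read counts under the peak speak more strongly for unequal enrichment in both treatments. It has no value per library, so nothing below has a replicate error or a test over mice, and the read depth behind each peak is unknown. The LPS-down table was used on chromosomes 1 to 9, since the table as given here ends within chromosome 10. Both comparisons use the LPS libraries, so a site that is LPS-up and Mel-down can be so through the LPS libraries alone. The tables hold differential peaks only, and the presence of the tissue's defining markers could not be read from them. All log likelihood ratios below are the authors' values, and intervals are 95% intervals, Wilson intervals for shares and order-statistic intervals for medians, that cover counting error only.

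The annotation assigns each peak to the gene with the nearest start, which need not be the gene that holds it. A gene is named as host here only where the peak centre lies between its start and its end. The sites below show what the peaks of the leading hosts look like at the level of bases: for each peak, the DRACH match nearest the centre with 12 bases on each side, on the strand of the gene, from the GENCODE release M21 transcripts (GRCm38). DRACH means A, G or T, then A or G, then A and C, then A, C or T, and the match is in capitals. The first group holds leading hosts of the 4 tables.
Il17rb (LPS-up and Mel-down), chr14:29996590-29996618, minus strand: ccgggggaatagAGACTctgaagccttcc
Cxcl13 (LPS-up), chr5:95960427-95960455, plus strand: acaaactaaaaaAAACCcaatcctgcagg
Aoc1 (LPS-down), chr6:48908989-48909017, plus strand: catacctgccaaAGACTtccatgaccaat
Ptgs2 (LPS-down), chr1:150107711-150107739, plus strand: gactgacattttAGACAttttgaaggccc
Prss28 (Mel-up), chr17:25311726-25311754, plus strand: tctttacttcctGGACCcttccttgctcg
Aqp5 (Mel-up), chr15:99594490-99594518, plus strand: ggtgtgggccagGGACAgggcctctttgg
Gcnt4 (Mel-up), chr13:96950043-96950071, plus strand: acacatttctctGGACTcagaaacgtcaa
Shisa3 (Mel-down), chr5:67613542-67613570, plus strand: ctcacagagaggTGACTgagctaatttca

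The second group holds genes of uterine receptivity and the pairs of peaks that lay at the same place in opposite tables or at different places in the same 3′UTR.
Lif (Mel-up), chr11:4271628-4271656, plus strand: aggctcatctcaGGACTggctgcccttct
Wnt4 (LPS-down), chr4:137298314-137298342, plus strand: aggttccccaagGGACAtaccatacctgg
Wnt4 (Mel-up, nearest the stop), chr4:137297125-137297153, plus strand: ggctgtccacatTGACCactgttgactac
Ihh (LPS-up), chr1:74945786-74945814, minus strand: ccatctgtctttGGACTgcttactccaat
Depp1 (LPS-down and Mel-up), chr6:116652502-116652530, plus strand: ctggctggcccgTGACTttgaagcgactc
Klhdc8a (Mel-up), chr1:132304857-132304885, plus strand: tcaaagcagtttGGACTacttcctcaggc
Elk4 (Mel-down), chr1:132023693-132023721, plus strand: agacacccgccaTGACTcggttcgaaatg
Elk4 (Mel-up), chr1:132023961-132023989, plus strand: ccttggatgttaGGACCctttggccaggg
A DRACH match is common by chance, since 96.6% of all windows of 173 bases (the median width of the placed peaks) in the 3′UTRs of 21021 reference transcripts hold one, so these sequences show where a methylated base could lie and not where it was measured.

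The 3′UTR held a steady share of the differential peaks, with low values. It was the annotation of 2422 of 12023 LPS-up peaks (20.1%), 1373 of 6259 LPS-down peaks (21.9%), 2573 of 13436 Mel-up peaks (19.2%) and 2062 of 9211 Mel-down peaks (22.4%). Their median log likelihood ratios were 2.01, 2.04, 1.92 and 1.85, against 2.88, 2.65, 2.17 and 3.09 over all peaks of the same tables. A value of at least 3 was held by 28% of the 3′UTR peaks against 48.7% of all LPS-up peaks, by 29.6% against 45.9% of LPS-down, by 23.2% against 32.7% of Mel-up and by 24.0% against 50.8% of Mel-down. The members therefore stood below the background of their tables in all 4. In bulk uterus, a change in methylation per transcript, in RNA per cell and in the number of cells that carry the transcript cannot be told apart from these values.

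The class medians were lower in exons than in introns. Peaks in last exons had medians of 1.92, 1.94, 1.99 and 1.83 in the order LPS-up, LPS-down, Mel-up and Mel-down, close to those of the 3′UTR, and peaks in internal exons 2.22, 2.11, 2.10 and 2.17. Introns had medians of 3.78, 3.63, 2.97 and 3.85, and distal intergenic peaks 3.78, 3.63, 4.42 and 3.85. A single tied value per table, 3.78, 3.63, 5.42 and 3.85, was the commonest of all, and it was held by 2.52%, 2.84%, 1.20% and 2.67% of the 3′UTR peaks against 12.1%, 11.7%, 3.57% and 14.9% of all peaks. The 3′UTR peaks were 184, 172, 169 and 175 bases wide at the median, and 54, 58, 37 and 17 of them reached 10.

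**Figure D1:**
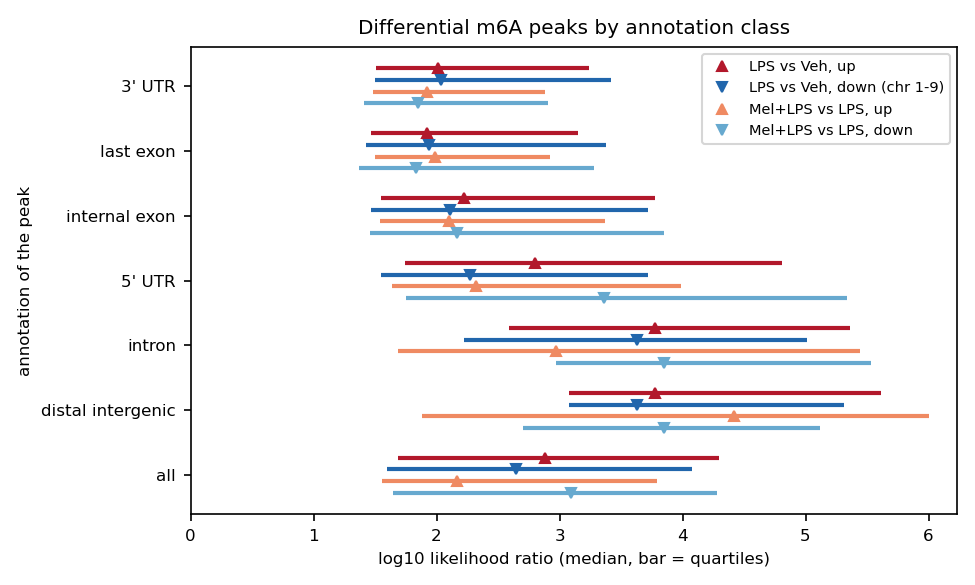
Median (symbol) and quartiles (bar) of the log10 likelihood ratio on the x axis for each annotation class on the y axis, with 1 color per table. The 3′UTR medians of 1.85 to 2.04 lay beside those of last exons and below those of introns in every table.

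The assigned gene was often not the gene that held the peak. The centre lay inside the assigned gene for 1029 LPS-up (42.5%), 612 LPS-down (44.6%), 1113 Mel-up (43.3%) and 902 Mel-down (43.7%) 3′UTR peaks, 3656 in all. Over peaks of every class the shares were 44.4%, 49.2%, 53.5% and 41.2%. In 5′UTR peaks they were 89.5%, 87.8%, 89.7% and 90.9%. On the GENCODE transcripts, 6225 members (73.8%) had their centre in the 3′UTR of 1 gene, 795 on another part of an exon, 1106 on no exon of the transcript chosen for a gene, 275 on scaffolds without a reference transcript and 29 in the 3′UTRs of several genes. Of the 2632 hosted peaks among the 6225, 2413 lay in the 3′UTR of the gene assigned, but of the 3593 others only 80 did. The genes whose 3′UTRs held the latter spanned a median of 47807 bases, against 15057 bases for the hosted ones. A count of genes taken from the assigned names would therefore credit many long genes' 3′UTR peaks to a neighbor, and the gene counts below use hosts alone.

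The position within the 3′UTR differed between up and down peaks. Centres lay a median of 364 bases from the stop codon in LPS-up (interval 337 to 398), 411 in LPS-down (356 to 462), 331 in Mel-up (307 to 361) and 547 in Mel-down (488 to 603). The last 200 bases before the 3′ end held 10.8% of LPS-up centres (9.38 to 12.3) and 22.2% of LPS-down centres (19.8 to 24.7). They held 11.3% of Mel-up (9.96 to 12.8) and 19.4% of Mel-down centres (17.4 to 21.5). This share was not a planned measure. Up peaks were thus less frequent near the 3′ end than down peaks in both comparisons, by more than the counting error. Centres placed evenly over the same 3′UTRs would put 16.4%, 22.1%, 16.8% and 19.1% there, in the order LPS-up, LPS-down, Mel-up and Mel-down.

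Next to the stop codon, all 4 tables held more centres than even placement would give. The first 200 bases held 32.3% of LPS-up, 30.7% of LPS-down, 36.0% of Mel-up and 26.6% of Mel-down centres. The intervals of LPS-up (30.1 to 34.6) and LPS-down (28.1 to 33.5) overlapped, while those of Mel-up (33.9 to 38.2) and Mel-down (24.4 to 28.9) did not. When each 3′UTR was cut into 3 parts of equal length, the part next to the stop codon held 56.4%, 45.3%, 61.1% and 41.6% and the part next to the 3′ end 18.9%, 27.8%, 15.7% and 32.8%. In 3′UTRs of at least 1000 bases, a limit set with the data in view, the last 200 bases held 4.06%, 9.22%, 3.67% and 11.1%. Among peaks that reached a value of 3, the LPS-up and LPS-down medians from the stop codon were 397 and 392 bases, so the order of these medians was not kept in LPS vs Veh, and in Mel+LPS vs LPS they were 321 and 650 bases.

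**Figure D2:**
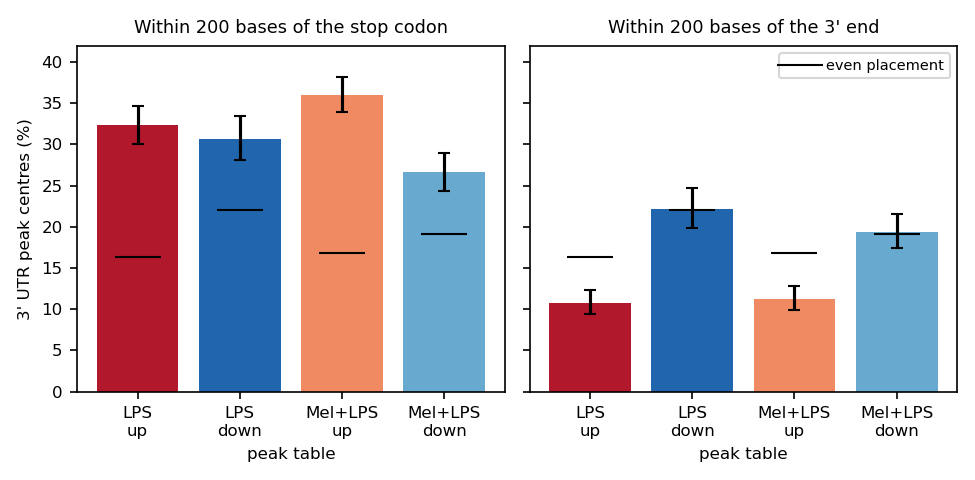
Percent of 3′UTR peak centres (y axis) within 200 bases of the stop codon (left) and of the 3′ end (right) in each peak table (x axis), with Wilson 95% intervals as error bars and black lines at the percent that even placement over the same 3′UTRs would give. Near the 3′ end both down tables stood at 19.4% or more and both up tables at 11.3% or less.

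Some 3′UTRs held an up and a down peak of the same comparison at different places. In LPS vs Veh on chromosomes 1 to 9 this was so in 26 host genes, and the up peak with the highest value lay nearer the stop codon than the down peak in 20 of them (76.9%, interval 57.9 to 89.0). In Mel+LPS vs LPS it was so in 49 host genes, with the up peak nearer the stop codon in 34 (69.4%, 55.5 to 80.5). The median distance between both peaks was 602 bases in the former and 584 bases in the latter. No up peak overlapped a down peak of the same comparison. This was also so over peaks of every class, so it is not particular to the 3′UTR.

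Among the 6 genes whose pairs had the highest lower value, 3 per comparison, the up peak was the nearer one in Lrrc8c alone. Lrrc8c, a subunit of volume-regulated anion channels, had an LPS-up peak of 8.64 at 1666 bases and an LPS-down peak of 2.66 at 4189 bases from its stop codon. Art4, an ADP-ribosyltransferase of the cell surface, had an LPS-down peak of 4.93 at 67 bases and an LPS-up peak of 5.56 at 990 bases. Pag1, an adaptor that recruits the kinase Csk, had an LPS-down peak of 4.05 at 216 bases and LPS-up peaks of 6.19, 3.07 and 1.90 at 521, 1496 and 2876 bases. In Art4 and Pag1 the down peak was thus the one next to the stop codon.

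Elk4, an ETS factor of the serum response, had a Mel-down peak of 4.44 at 82 bases and a Mel-up peak of 8.5 at 344 bases, and its printed sites lie in these peaks. Frk, a Src-family kinase, had Mel-up peaks of 2.39 and 7.67 at 245 and 894 bases and a Mel-down peak of 6.44 between them at 653 bases. Zdhhc23, a palmitoyltransferase, had Mel-up peaks of 3.75, 2.73 and 10 at 349, 1121 and 3376 bases and a Mel-down peak of 3.45 at 609 bases. In all 3 genes the highest Mel-up peak lay farther from the stop codon than the Mel-down peak, unlike in most of the 49.

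The sequence under the peaks was richer in the m6A motif than the rest of the same 3′UTRs. DRACH, which overlaps GGAC, occurred 26.4 times per 1000 bases in LPS-up peaks against 20.4 in the rest of their 3′UTRs, a ratio of 1.29. The ratios were 1.21 for LPS-down, 1.21 for Mel-up and 1.27 for Mel-down. GGAC, the commonest core of methylated sites, gave 1.74, 1.74, 1.86 and 1.62. It was present in 55.7%, 56.4%, 58.1% and 51.1% of the peaks, against 37.5% of all 3′UTR windows of 173 bases. Matches were counted on the transcript strand, and a match is a description of sequence.

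GGAC was densest to the 5′ side of the centre. The highest value among bins of 25 bases was 5.85 per 1000 bases in LPS-up, 7.08 in Mel-up and 5.72 in Mel-down, each in the bin centred 37.5 bases 5′ of the peak centre, and 7.01 in LPS-down in the bin centred 62.5 bases 5′ of it. In the bin centred 37.5 bases 3′ of the centre it was 4.08 in LPS-up, 3.64 in LPS-down, 3.56 in Mel-up and 4.30 in Mel-down. Peaks moved 100 bases toward the 5′ end gave DRACH ratios of 1.30, 1.24, 1.26 and 1.25 in the order LPS-up, LPS-down, Mel-up and Mel-down.

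**Figure D3:**
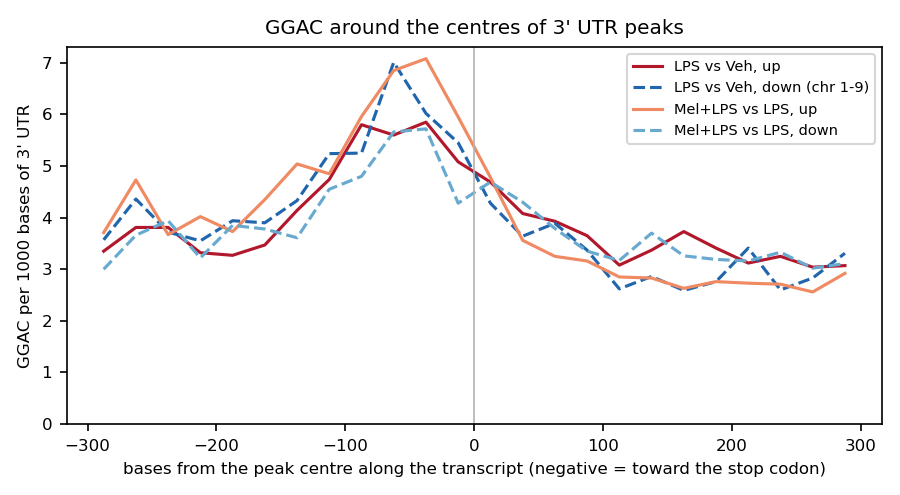
GGAC matches per 1000 bases of 3′UTR (y axis) in bins of 25 bases by distance from the peak centre along the transcript (x axis, negative toward the stop codon), 1 line per table, drawn solid for up and dashed for down. All 4 lines are highest 37.5 or 62.5 bases 5′ of the centre, at 5.72 to 7.08.

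Other motifs set the tables apart less or in another way. ATTTA, the core of AU-rich elements that mark short-lived mRNAs, was rarer in peaks than in the rest of the same 3′UTRs, with ratios of 0.671, 0.73, 0.73 and 0.778. It was present in 18.8% to 19.5% of the peaks of the 4 tables and in 24.8% of all windows. AATAAA, the poly(A) signal, was present in 13.3% of LPS-up and 12.3% of Mel-up peaks but in 22.5% of LPS-down and 19.6% of Mel-down peaks, against 11.6% of windows. The AATAAA shares thus followed the direction of the peaks, as the distance from the 3′ end did. G and C made up 46.2%, 45.1%, 45.6% and 45.1% of the bases under peaks and 43.3% to 43.8% of those of their 3′UTRs.

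GGAC followed the log likelihood ratio in no steady order. It was present in 52.0% of LPS-up peaks with values from 1 to 1.5 (interval 47.3 to 56.7), in 64.8% of those from 2 to 3 (59.8 to 69.4) and in 53.9% of those from 3 to 10 (48.9 to 58.9). In Mel-up the lowest and the last of these groups had 58.7% and 55.8%. In LPS-down they had 50.2% (44.3 to 56.0) and 61.5% (55.4 to 67.1), and in Mel-down 49.5% and 47.7%. The weakest peaks were narrower, with median widths of 144 to 151 bases from 1 to 1.5 and 185 to 200 bases from 3 to 10.

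The 6 hosts with the highest LPS-up values were Il17rb, Cxcl13, Plekhs1, Fpr1, Dcxr and Zfp386. Il17rb, a subunit of the receptor for IL-25 and IL-17B, had 62.8 (chr14:29996257-29996973), with the centre 9 bases past the stop codon, and the identical interval was Mel-down with 13.0. Cxcl13, the chemokine that draws B cells, had 53.7 (chr5:95960274-95960610) and Mel-down 1.59. Plekhs1, a pleckstrin-homology protein, had peaks of 25.3 and 26.0 at 92 and 534 bases from the stop codon (chr19:56485754-56486127 and chr19:56486304-56486461), which were Mel-down with 5.60 and 2.81 in the same order. The printed Il17rb and Cxcl13 sites hold DRACH matches of which neither is GGAC.

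Fpr1, the formyl peptide receptor of neutrophils, had 20 (chr17:17876481-17876855), with the centre on an exon but outside the GENCODE 3′UTR. It had no 3′UTR peak in another table, and LPS-down was not used on its chromosome. Dcxr, a carbonyl reductase, had 14.8 LPS-up and 6.09 Mel-down at the same interval (chr11:120724999-120725198), off the exons of the transcript used. Zfp386, a zinc finger gene, had 13.5 at 1239 bases and 2 weaker LPS-up peaks of 1.25 and 1.99 outside the GENCODE 3′UTR. Of these 6 genes, 4 had a Mel-down 3′UTR peak, and Fpr1 and Zfp386 had no 3′UTR peak in Mel+LPS vs LPS but were Mel-up elsewhere, Fpr1 with 2.98 in its last exon and Zfp386 with 1.34 in its 5′UTR. Both comparisons share the LPS libraries.

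The highest LPS-down values were larger, and genes of the epithelial secretory list counted below were among them. Clca1, a secreted regulator of chloride channels, had 217.9 (chr3:145004468-145004957), with the centre on an exon but outside the GENCODE 3′UTR. Sprr2b, Sprr1a and Sprr2a2, small proline-rich proteins of the cornified envelope, had 174.4 (chr3:92317978-92318176), 58.0 (chr3:92484004-92484108) and 30.5 (chr3:92256247-92256715). The Sprr2 genes are near copies of each other, so how reads were split among them is uncertain. Aoc1, diamine oxidase, which breaks down histamine and putrescine, had 142.7 (chr6:48908740-48909205) and Mel-up 39.5 (chr6:48908752-48909073).

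These peaks differed in how they stood in Mel+LPS vs LPS. Among the 5 genes just named, all with LPS-down values among the highest of any host, the Aoc1 3′UTR was the only one listed there in either direction. Ptgs2, the inducible cyclooxygenase that makes the prostaglandins of implantation, had an LPS-down peak of 21.3 (chr1:150107606-150107846) at 1944 bases in a 3′UTR of 2445 bases, and none in the other tables. Sprr2f had 17.1 LPS-down (chr3:92365951-92366485) and 4.74 Mel-down at an overlapping interval, so it was listed down in both comparisons.

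Other exons of several of these genes were listed in the same direction. Internal exons of Aoc1 were LPS-down with 110 and 86.6 and Mel-up with 20.9 and 4.99, and 8 internal exon peaks of Clca1 were LPS-down with values of 53.1 to 222. An internal exon of Cxcl13 was LPS-up with 18.3. In LPS vs Veh on chromosomes 1 to 9, another exon peak in the same direction was held by 128 of 468 LPS-up hosts (27.4%) and 125 of 549 LPS-down hosts (22.8%), and one in the opposite direction by 66 (14.1%) and 63 (11.5%). Over all genes of these chromosomes, 951 held an LPS-up and 1094 an LPS-down exon peak outside the 3′UTR.

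In Mel+LPS vs LPS the other exons leaned one way. Of 982 Mel-up hosts, 323 (32.9%) had another exon peak that was Mel-up and 57 (5.80%) one that was Mel-down. Of 817 Mel-down hosts, 115 (14.1%, interval 11.9 to 16.6) had another exon peak that was Mel-down and 168 (20.6%, 17.9 to 23.5) one that was Mel-up. Among Mel-down hosts, a Mel-up exon peak was thus more frequent than a Mel-down one. Over all genes, 3094 held a Mel-up and 1028 a Mel-down exon peak outside the 3′UTR. The background thus leaned the same way and more strongly, and the lean is not particular to Mel-down hosts.

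The highest Mel-up value was that of Aoc1. After it came Prss28, the implantation serine protease of uterine glands, with 24.0 (chr17:25311625-25311877), at 79 bases in a 3′UTR of 204 bases. Gxylt1, which adds xylose to Notch, had 23.1, 6.73 and 1.36 at 1129, 3631 and 336 bases, with an LPS-up peak of 1.57 at 156 bases. Aqp5, a water channel of glands, had 21.2 (chr15:99594273-99594771), with 5 GGAC matches under the peak. Gm42517, a predicted gene, had 18.8 (chr5:108366295-108366432). Gcnt4, which builds core 2 branches of mucin glycans, had 18 (chr13:96950001-96950210) at 2540 bases. Prss28, Aqp5, Gm42517 and Gcnt4 had no 3′UTR peak in another table, with the limit that the LPS-down table was not used beyond chromosome 9.

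The highest Mel-down value was on a scaffold. Hspa1a-3, a copy of the inducible heat shock protein HSP70, had 52.6 Mel-down and 10.9 LPS-up at overlapping intervals, and reads of HSP70 copies cannot be told apart with certainty. Shisa3, an inhibitor of Wnt and FGF receptors, had 19.1 (chr5:67613462-67613675) at 2093 bases in a 3′UTR of 2517 bases, with no 3′UTR peak in the other tables. 1810062G17Rik had 15.4 Mel-down and 5.46 LPS-up at overlapping intervals. Gcnt3, like Gcnt4 a mucin-branching enzyme, had 12.3 Mel-down (chr9:70033779-70034659) and 5.45 LPS-up, opposite to Gcnt4. Aknad1 had 13.3 and 6.87 Mel-down and 1.55 and 6.23 LPS-up at the same pair of sites. Its peaks of 6.87 and 6.23 lay off the transcript used, and its internal exons were Mel-down with 6.05 and Mel-up with 6.72. The centres of its peak of 13.3 and of the 1810062G17Rik and Gcnt3 peaks lay on an exon but outside the GENCODE 3′UTR.

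**Figure D4:**
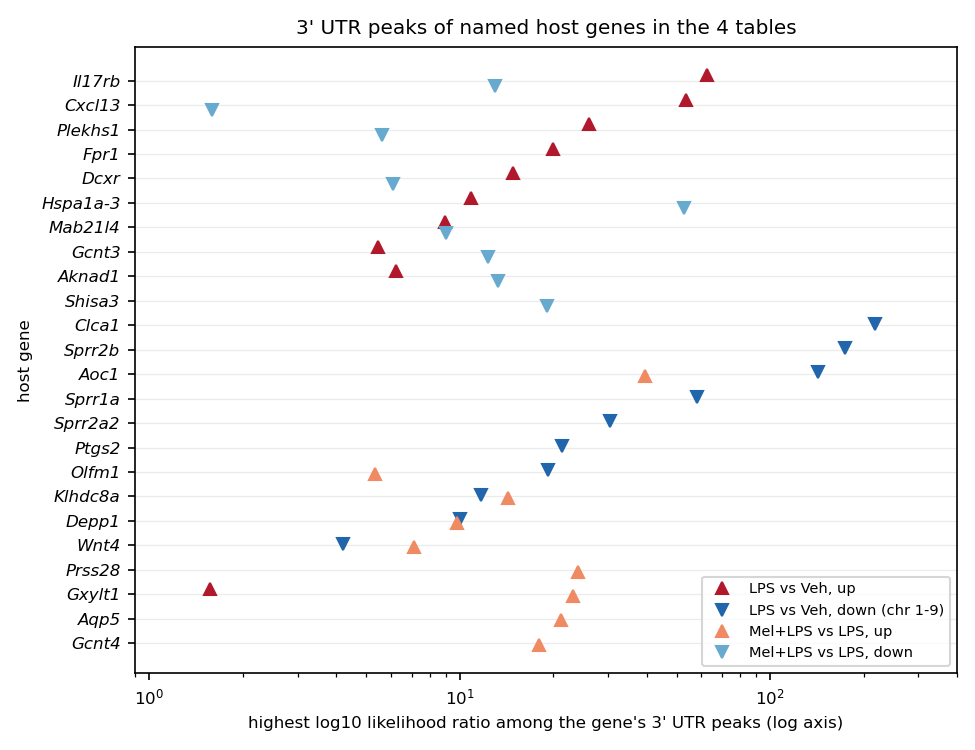
Highest log10 likelihood ratio among the 3′UTR peaks of each named host gene (y axis) in each table on a log x axis, with triangles up for up tables and down for down tables. Clca1, Sprr2b and Aoc1 reached 217.9, 174.4 and 142.7 in LPS-down, and Hspa1a-3 reached 52.6 in Mel-down against 10.9 in LPS-up.

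Peaks at the same place were counted over the pairs of tables, which share the LPS libraries. Of the LPS-up 3′UTR peaks, 850 (35.1%) overlapped a Mel-down 3′UTR peak, which were 857 of the Mel-down peaks (41.6%), beside 38.5% of LPS-up peaks of every class. Of the LPS-down 3′UTR peaks, 456 (33.2%) overlapped a Mel-up 3′UTR peak, 455 of the Mel-up peaks on chromosomes 1 to 9 (32.0%), beside 30.3% for every class. LPS-up and Mel-up shared 62 (2.56%, 2.41% of Mel-up) beside 2.25%, and LPS-down and Mel-down 23 (1.68%, 2.13% of Mel-down) beside 0.799%. The shares stood near the background of all classes for the first 3 pairs. Opposite listing can come from the shared LPS libraries, and how much of it does was not tested.

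Beside Il17rb, Aoc1 and Hspa1a-3, the 3 highest lower values of each opposite pair of tables included Depp1, Klhdc8a and Mab21l4. Depp1, a FOXO target that acts on autophagy, had 9.99 LPS-down and 9.81 Mel-up over nearly the same bases (chr6:116652233-116652805 and chr6:116652251-116652808), with the same printed DRACH site nearest both centres. Klhdc8a, a kelch-repeat gene, had 11.7 LPS-down and 14.3 Mel-up at 141 and 94 bases from the stop codon. Mab21l4 had 8.93 LPS-up and 9.06 Mel-down at the same interval (chr1:93151732-93151916), which the reference places in 2310007B03Rik, its older name.

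Few sites were listed in the same direction in both comparisons. Pdcd1, the T cell inhibitory receptor PD-1, had 7.87 LPS-up and 2.57 Mel-up at 363 and 507 bases of its 3′UTR. Cd209f, a C-type lectin, had 3.05 LPS-up and 2.56 Mel-up, both off the transcript used, and another Mel-up peak of 5.73. Elf3, an epithelial ETS factor, had 6.86 LPS-down and 2.81 Mel-down, with 7 GGAC matches under each. Ifne, the interferon made by epithelium of the reproductive tract, had 6.55 LPS-down and 3.43 Mel-down. Both Ifne centres lay on an exon but outside the GENCODE 3′UTR. When most of both peaks had to be shared (at least 50% of each), 18 of the 62 LPS-up and Mel-up peaks and 8 of the 23 LPS-down and Mel-down peaks were left, so the others overlapped by less.

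Sites in both lists of an opposite pair lay elsewhere than the others. LPS-up centres that overlapped a Mel-down peak lay within 200 bases of the stop codon in 26.5% (interval 23.1 to 30.2) and those that did not in 35.5% (32.7 to 38.4). LPS-down centres that overlapped a Mel-up peak did so in 36.3% (31.6 to 41.3) and those that did not in 27.7% (24.6 to 31.1). Near the 3′ end lay 15% of the former and 26.0% of the latter. LPS-up sites shared with Mel-down were thus the more distal of the LPS-up sites, and LPS-down sites shared with Mel-up the more proximal of the LPS-down sites.

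At the level of genes, the 3656 hosted peaks lay in 2369 host genes. Of the 1386 hosts on chromosomes 1 to 9, where all tables could be used, 873 (63.0%) were in 1 table, 445 in 2, 55 in 3 and 13 in 4. LPS-up and Mel-down only was the pattern of 161 genes and LPS-down and Mel-up only that of 183. LPS-up and Mel-up only was that of 47, and LPS-down and Mel-down only that of 24. The 389 genes in both LPS-up and Mel-down were 44.0% of the former and 47.6% of the latter, and the 221 in both LPS-down and Mel-up 40.3% and 41.4%. These comparisons share the LPS libraries.

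Most hosts, 1504, had 1 peak over the 4 tables, and a few had many. Igfbp5, an IGF-binding protein, had 10 in its 3′UTR of 4445 bases, 6 LPS-up with values of 1.07 to 2.78 and 4 Mel-down with 1.16 to 2.57. Olfm1, a secreted glycoprotein of the endometrium, had 4 LPS-down peaks of 3.16 to 19.3 and 4 Mel-up peaks of 2.24 to 5.32. Of these, the LPS-down peak of 19.3 and the Mel-up peak of 3.18 lay off the transcript used. The LPS-down peak of 3.81 lay on another part of an exon. Gm42048, a predicted gene on chromosome 8, had 12, 7 LPS-up and 5 Mel-down, off the reference transcripts. In all 3 genes, the 3′UTR peaks of LPS vs Veh had 1 direction and those of Mel+LPS vs LPS the other, but the first exon of Gm42048 was LPS-down with 6.28.

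Gene lists were read as counts of hosts, beside the share of all hosts that a table held: 37.3% for LPS-up, 39.6% for LPS-down on chromosomes 1 to 9, 41.5% for Mel-up and 34.5% for Mel-down. Genes below that the naming rule does not cover were chosen after their values were seen. The lists are small, and nothing particular to a list is drawn from them. Some listed peaks had their centre on an exon but outside the GENCODE 3′UTR. Beside those marked below, these were the named peaks of Tlr1, Tlr2, Tfeb, Fadd, Hp and Saa2. They were also the LPS-up peaks of Tlr7 (2.03), Fasl (3.09) and Nr4a2 (3.47) and the Mel-up peak of Rraga (1.60).

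Epithelial secretory and acute phase genes were 14 hosts, 13 of them on chromosomes 1 to 9, and 10 of those 13 were LPS-down (76.9% beside 39.6%). Their median highest value was 18.8, against 2.15 over all LPS-down hosts. Beyond those named, they were Sprr2d (17.2), Prap1 (20.3), a secreted protein of uterine epithelium, Muc1 (7.69), the surface mucin, Car2 (4.80) and Clca2 (1.14). LPS-up held 1 (7.14% beside 37.3%), the haptoglobin gene Hp with 3.68. Mel-up held 2 (14.3% beside 41.5%), Aoc1 and Saa2, the latter with 2.86. Mel-down held 5 (35.7% beside 34.5%). The list was written with some of these genes known from earlier results, so its count is not independent evidence of the direction.

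TLR and NF-κB genes were 10 hosts, 7 of them LPS-up (70.0% beside 37.3%). Tlr7, the endosomal receptor for single-stranded RNA, had LPS-up peaks of 10.1 (chrX:167304940-167305054) and 2.03. Tlr2 and Tlr1, receptors for lipopeptides, had 3.12 and 2.10. Tnfaip3, the A20 brake on NF-κB, had 3.96 LPS-up, 1.71 Mel-down and 1.19 Mel-up. The Mel-up peak overlapped the edge of the LPS-up peak but not the Mel-down peak. Ccl2, the monocyte chemokine, had 3.10 LPS-up and Birc2, a ubiquitin ligase of TNF signaling, 2.89. Of the 6 hosts on chromosomes 1 to 9, 2 were LPS-down (33.3% beside 39.6%), Ptgs2 with 21.3 and the LPS receptor Tlr4 with 1.27, at percentile 10.9 of the log likelihood ratios of its table. The last exon of Tlr4 also held an LPS-up peak of 2.20 and a Mel-up peak of 1.58.

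Interferon response genes were 10 hosts, 9 of them Mel-down (90.0% beside 34.5%) and 0 Mel-up (beside 41.5%). Ifi44 had 6.25 Mel-down (chr3:151730838-151731174) and Ifit3, an RNA-binding effector, 5.34 (chr19:34588256-34588637). Ifit1 had 2.94 and Isg15, the ubiquitin-like modifier, 2.28. Irf5 and Irf3, transcription factors of the response, had 1.75 and 1.16, and Ddx58, the RNA sensor RIG-I, 1.42. The median highest value of the 9 was 2.02, near the 1.90 of all Mel-down hosts. The Mel-down centres of Ifit1, Isg15 and Ddx58 lay on an exon but outside the GENCODE 3′UTR. In LPS vs Veh, 4 were LPS-up and 2 of the 7 on chromosomes 1 to 9 LPS-down, Ifi44 with 1.96 and Zbp1, a sensor of Z-form nucleic acid and the list's only host outside Mel-down, with 6.65. By assigned name, with no rule on the centre, 9 of the list's genes were LPS-up and 3 Mel-up.

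Of 45 leukocyte and antigen presentation genes 8 were hosts, 5 of them LPS-up (62.5% beside 37.3%). Lyz2, lysozyme of macrophages and neutrophils, had 5.39 (chr10:117277600-117278042) and Cybb, the oxidase subunit of phagocytes, 2.94 and 2.77. The class I genes H2-D1, H2-K1 and B2m had 2.74, 2.54 and 1.63, and H2 genes are close copies of each other. Of the 3 hosts on chromosomes 1 to 9, 2 were LPS-down (66.7% beside 39.6%), Ccr2 with 2.87 and Fcgr2b with 2.30. Only some genes of this list, such as Lyz2 and Cybb, are markers of cells that enter the tissue. The part of such cells in the LPS-up counts was not tested.

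Receptivity and decidua genes were 15 hosts, spread over the tables with 6 LPS-up (40%), 5 Mel-up (33.3%) and 6 Mel-down (40%), and 4 LPS-down of the 8 on chromosomes 1 to 9 (50%). Wnt4, which the stroma needs to decidualize, had 4.21 LPS-down (chr4:137298129-137298538) and Mel-up peaks of 7.13, 3.64 and 5.33 at 363, 1588 and 2271 bases, the second of them over the LPS-down site. Lif, the cytokine that starts implantation, had Mel-up peaks of 2.29 and 5.24 at 52 and 2316 bases of its 3′UTR of 3180 bases. It had no 3′UTR peak in LPS-up or Mel-down, and LPS-down was not used on its chromosome. Its last exon was Mel-up with 2.41. Ihh, the epithelial ligand that relays progesterone to the stroma, had 3.3 LPS-up in its 3′UTR, a Mel-up peak of 2.15 there, and 3.22 LPS-down and 6.45 Mel-up at another place off the transcript used. Muc1 had 7.69 LPS-down and 1.81 Mel-down. Igfbp3 had a highest Mel-up value of 5.14, Alox15 3.39 LPS-up and 2.20 Mel-down, and Lifr 3.2 LPS-up.

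Of 30 smooth muscle and 50 extracellular matrix genes, 3 and 7 were hosts. All 3 smooth muscle hosts (beside 39.6%), Des, Synpo2 and Tagln, were LPS-down with 4.75, 2.93 and 2.60, and Des and Tagln were Mel-up with 1.72 and 1.48. The LPS-down peak of Synpo2 lay off the transcript used, and the peaks placed in its 3′UTR were LPS-up, with 2.63 and 1.44. Extracellular matrix genes were 7 hosts, 4 of them on chromosomes 1 to 9. Of these 4, Postn (4.67), Fbln2 (2.95) and Col1a2 (2.39) were LPS-down (beside 39.6%). Of the 7, 4 were Mel-up (beside 41.5%), Postn with 1.87 and Col1a2 with 1.37 among them. LPS-up held 1 (beside 37.3%), Thbs1 with 1.39. Mel-down held 2 (beside 34.5%), Thbs1 with 2.07 and Nid1 with 1.65. Myometrium and stroma were not separated from the endometrium.

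Apoptosis genes were 8 hosts, 6 of them LPS-up (75% beside 37.3%) with a median of 1.83, below the 2.20 of all LPS-up hosts. Of the 6 hosts on chromosomes 1 to 9, 2 were LPS-down (33.3% beside 39.6%), Fadd with 1.55 and Cycs with 1.34. Mel-up held 2 of the 8 (beside 41.5%), Fasl and Fadd, the latter with 1.72. Mel-down held 1 of the 8 (beside 34.5%), Bmf. Fasl, the death ligand of T and NK cells, had 3.09 and 1.25 LPS-up and 3.67 Mel-up, its receptor Fas 1.87 LPS-up, and Bmf, a BH3-only protein, 3 LPS-up peaks of 1.46 to 1.78 and 2 Mel-down peaks of 1.61 and 2.01. Autophagy and mTOR genes were 4 hosts, with Tfeb, the lysosomal transcription factor, at 2.67 LPS-up and 1.69 Mel-down, Sesn1 at 2.03 LPS-up, and Rraga (1.60) and Atg4d (1.38) Mel-up. Of the 4, Rraga and Atg4d lie on chromosomes 1 to 9, and neither was LPS-down.

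Immediate early and feedback genes were 19 hosts, the most of any list, with 5 LPS-up, 4 LPS-down, 8 Mel-up and 5 Mel-down. Nr4a3, an orphan nuclear receptor, had 7.94 LPS-up and 1.68 Mel-down at 2262 and 2254 bases. Its relative Nr4a2 had 3.47 LPS-up and 1.48 Mel-down. Fos had 4.42 Mel-down and Socs3, the inhibitor of cytokine receptors, 3.09 Mel-up. The shares of 26.3%, 42.1% and 26.3% in LPS-up, Mel-up and Mel-down and 4 of 8 in LPS-down lay on both sides of the background.

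Genes that act on 3′UTRs and on m6A itself were counted in the same way. Of 66 factors of 3′UTR binding, deadenylation and polyadenylation, 12 were hosts, with 6, 3, 3 and 6 in the 4 tables. Cstf3, a cleavage stimulation factor, had 3.17 and 2.60 LPS-down and 6.55 Mel-up, off the transcript used. Cnot4, of the CCR4-NOT complex, had 4.89 Mel-down at 1084 bases and 1.61 LPS-up at 41 bases. Pan3, of the PAN2-PAN3 deadenylase, had LPS-up (2.64 and 1.68), LPS-down (1.73 and 1.35) and Mel-up (1.88 and 1.56) peaks. The Pan3 peak of 2.64 lay off the transcript used. Of 15 m6A writers and erasers 0 were hosts, and of 19 readers 1 was, Ythdf3, with a Mel-up peak of 3.62 (chr3:16214208-16214363). In all, 2369 genes were hosts, beside 21021 reference transcripts at 1 per gene. Most genes were thus no hosts, and these small counts show nothing particular to m6A regulators. Another list held 13 genes of inflammation, autophagy, apoptosis and melatonin receptors, most but not all of them measured by qPCR in the experiment. It is not the full set measured so, since the m6A regulators were left out of it. Of the 13, 2 were hosts, Tlr4 and Myd88, the adaptor of TLR signaling, which had a Mel-down peak of 1.49.

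**Figure D5:**
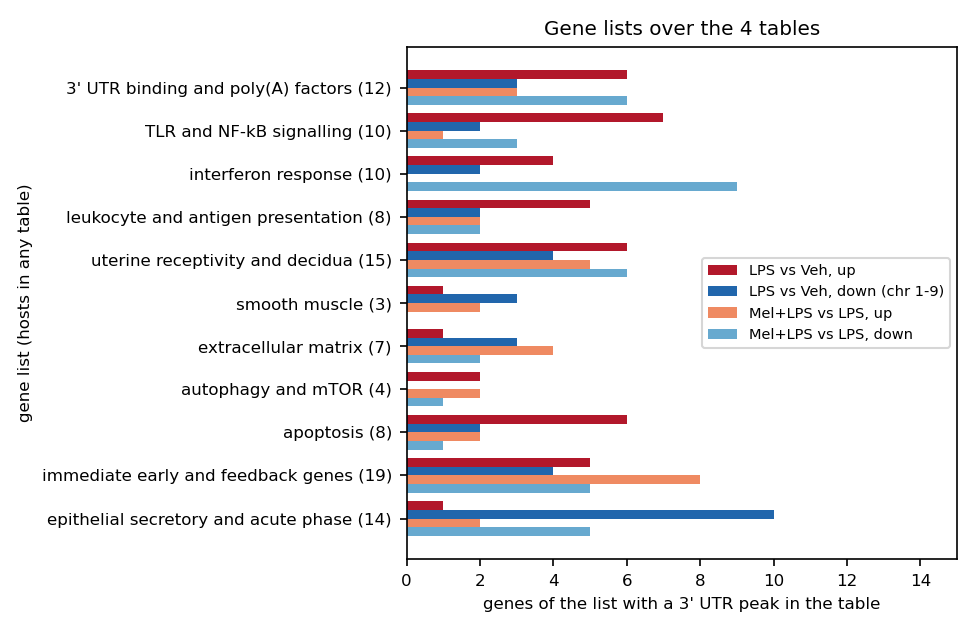
Number of genes of each list that host a 3′UTR peak (x axis) in each table, for lists (y axis) with at least 3 hosts, whose number of hosts in any table is in brackets. The longest bars are 10 epithelial secretory hosts in LPS-down, of 13 on chromosomes 1 to 9, and 9 of 10 interferon response hosts in Mel-down. These are 76.9% beside 39.6% of all hosts and 90.0% beside 34.5%.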

How the data were processed

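Input and m6A-immunoprecipitated libraries were made from the uterus in Veh, LPS and Mel+LPS mice. By the methods of the study, reads were trimmed (Fastp), aligned (STAR), called into peaks (exomePeak2), compared between treatments (MACS2) and annotated (ChIPseeker). The submitters' processing notes name STAR 2.5.2a, MACS2 3.4, ChIPseeker 1.22.1, HOMER 4.10 and the build mm10. The unit used is a score: per peak and comparison, the authors deposited a log10 likelihood ratio from MACS2. The way replicates were combined is not given in the sources used here. HOMER output was not used. Of the 4 tables, the LPS-down table was used on chromosomes 1 to 9.

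Members were the peaks annotated exactly as 3′UTR. The members, the 14 gene lists and the descriptions were chosen with earlier results of these data known. Peak centres were placed on 1 principal protein-coding transcript per gene (GENCODE release M21, 21021 transcripts). Motifs were counted in the transcript sequences. Overlap meant at least 1 base. No test was run, since the tables hold no value per library. Named genes were the 6 hosts with the highest value in each table, the 3 hosts with the highest lower value per pair of overlapping peaks in each pair of tables, hosts measured by qPCR, up to 4 hosts of each list, m6A regulators, the 3 hosts with the most peaks, and the 3 hosts per comparison with the highest lower value of an up and a down peak. Some of these genes are not reported here. The functions were checked on simulated data. Python 3.11.15, numpy 2.4.6, pandas 2.3.3, scipy 1.17.1 and matplotlib 3.10.9 were used.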

Additional observations from a re-analysis of the deposited data

How the results depend on the processing

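Of 170 alternative values, 72 stayed within the counting interval (or within 1.5 times for counts) and 98 moved; tables are in the order LPS-up, LPS-down, Mel-up and Mel-down. No paired analysis was possible because the tables hold no value per replicate, and leaving out replicates was not possible for the same reason. Depth cannot be read from the tables, which limits the precision of each log likelihood ratio. Down peaks were more often within 200 bases of the 3′ end than up peaks in both comparisons under each alternative run on that share. This share was not among the planned results, and all alternatives run on it were chosen after seeing the data. For the planned median distances from the stop codon, the LPS vs Veh order turned where the value reached 3. The cause of the moves was not tested.

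The 3′UTR share of peaks was 11.6%, 14.1%, 13.6% and 10.6% where the value reached 3, 15.8%, 19.5%, 16.3% and 18.5% by the class of the centre on the reference transcript, and 21% (LPS-up) and 20% (Mel-up) on chromosomes 1 to 9. The share inside the assigned gene was 48.5%, 48.0% and 50% for the first 3 tables at a value of at least 3, and 39.6%, 41.0% and 40.3% for the last 3 with the whole peak inside. The median log likelihood ratio was 2.20, 2.15 and 2.04 for the first 3 tables with 1 peak per gene, and 2.10 (LPS-up) and 2.01 (Mel-up) over hosts. The motif ratio was 1.74, 1.74, 1.86 and 1.62 with GGAC, and 1.26 in Mel-up with peaks moved 100 bases.

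The median distance from the stop codon was 264, 311, 231 and 447 bases with peaks moved 100 bases toward the 5′ end, 650 for Mel-down at a value of at least 3, and 422 for LPS-up on the transcript with the longest 3′UTR. In alternatives chosen after seeing the data it was 489, 643, 426 and 890 in 3′UTRs of at least 1000 bases, and 328, 353, 306 and 409 over hosts. The share near the 3′ end was 4.06%, 9.22%, 3.67% and 11.1% in those long 3′UTRs, 13.6%, 25.4% and 14.1% over hosts in the first 3 tables, and 13.4% (LPS-up), 9.40% (Mel-up) and 22.2% (Mel-down) at a value of at least 3.

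With both values at least 3, 155 LPS-up and Mel-down, 68 LPS-down and Mel-up, 1 LPS-up and Mel-up and 3 LPS-down and Mel-down peaks overlapped. With at least 50% of both peaks shared, 18 and 8 of the last pairs of tables did. Host genes in 1, 2, 3 and 4 tables were 404, 89, 10 and 0 at a value of at least 3, and 1685, 1021, 179 and 32 by assigned name. Genes LPS-up and Mel-down only were 36 and 365 under these 2 rules, LPS-down and Mel-up only 37 and 397, LPS-up and Mel-up only 9 and 118, and LPS-down and Mel-down only 2 and 58.

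These are the list counts that moved by assigned name, with no rule on the centre. The list of 13 genes, most of them measured by qPCR, had 2, 2, 1 and 2. Writers and erasers of m6A had 1, 1 and 1 in the first 3 tables, and readers 1 in LPS-down and 2 in Mel-up. Factors of the 3′UTR had 5 in Mel-up and 10 in Mel-down, TLR and NF-κB genes 4, 6 and 5 in the last 3 tables, interferon genes 9, 5 and 3 in the first 3, leukocyte genes 5 and smooth muscle genes 1 in Mel-down. Autophagy genes had 4 in LPS-up, 1 in LPS-down and 2 in Mel-down, apoptosis genes 10 in LPS-up, 4 in Mel-up and 6 in Mel-down, and epithelial genes 2 in LPS-up.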
